A study of Mus musculus with 16 samples.

Results

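The quantity described here is the GFP+/GFP- ratio of each gene within a pool of mice, and its change when the mice breathed 2-octanone instead of filtered air. It was formed for every probe set that names a gene, 19572 of the 28846 on the array, by subtracting the log2 signal of GFP- cells from that of GFP+ cells of the same pool. All 16 arrays of the study entered, so that 8 ratios per gene were available. No value of the arrays was used to choose the genes.

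Cells were dissociated from the olfactory mucosa. The donors were S100a5-tauGFP mice, 24 animals of both sexes and 7 to 12 weeks old, all carrying the reporter. Each mouse sat alone for 40 h in a chamber flushed with clean air at 3.1 L/min, and after 26 h it received pulses of 10 s every 20 min. Of 8 pools of 3 mice, 4 received 2-octanone, a ketone odorant, and 4 received filtered air as vehicle. Every pool was sorted into GFP+ and GFP- cells, which gave 4 groups of 4 arrays. A pool mixes the cells of 3 mice, so single mice cannot be told apart. The GFP- fraction can hold any cell of the dissociated mucosa without the marker, neurons included.

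A mature olfactory sensory neuron transcribes 1 odorant receptor gene, and that receptor decides which odorants excite it. S100a5 is a calcium-binding protein of these neurons whose transcription follows their activity, so GFP from its locus marks neurons that have been active. In an assay of this kind a receptor for the odorant is sought among those whose mRNA moves from the unmarked to the marked cells upon exposure. The change of the ratio within pools is the measure of that shift, and the background activity of each receptor is already contained in its ratio after vehicle.

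Both fractions of all pools contained neurons by their markers. Omp, the marker protein of mature sensory neurons, read 17.76 to 18.45 (log2 signal) on all arrays, while the 95th percentile of background probe sets, taken here as the limit of background, was at most 8.18. The ratios of different pools correlated at 0.73 to 0.86 across the named probe sets, with a median of 0.83. The pools numbered 4 stood apart in S100a5. In GFP+ cells it read 13.92 in 2-octanone pool 4 and 13.22 in vehicle pool 4, against 16.47 to 16.98 in the other 6 pools. In GFP- cells it read 13.55 and 13.11, against 15.45 to 15.81 in the other 6. Whether pools of the same number share a batch is not given in the labels. The genes of neutrophils, the granulocytes of the blood, stood apart in 2-octanone pools 3 and 4. Results that lean on these pools are given with and without them.

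S100a5 itself gives the check on the sort. After 2-octanone its ratio was 1.22, 0.87, 1.12 and 0.38 over pools 1 to 4, and with vehicle it was 0.90, 1.02, 1.00 and 0.11. The groups overlapped, and pool 4 was the lowest of both. The ratio differed by 0.14 (SE 0.26, log2, odor minus vehicle, 4 pools each), and by -0.08 without vehicle pool 4, so that no direction can be given. For Omp the ratio was 0.10, 0.13, 0.07 and 0.18 with the odorant, against 0.04, 0.01, 0.10 and 0.60 with air, a difference of -0.07 (SE 0.18). Its sign also turned, to 0.07, without vehicle pool 4.

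No gene's ratio changed with 2-octanone past the threshold. With limma, 0 of 19572 probe sets (0%) had a Benjamini-Hochberg adjusted p under 0.05, and the smallest adjusted p was 0.9994. At an unadjusted p under 0.05 there were 792 (4.05%), 451 of them higher (2.3%) and 341 lower (1.74%) after 2-octanone. That split depended on the scaling: with median centring it was 326 higher and 472 lower, and with quantile normalisation 383 and 404. None of 20 alternative fits called a gene, and the smallest adjusted p that any of them gave was 0.0742, for Olfr796 in limma without vehicle pool 4. The precision sets a limit here. With 6 residual degrees of freedom and 5.02 from limma's prior, a gene standing alone would have needed a t of 8.81, which at the median SE of odorant receptors (0.36) is a change of 3.15 on the log2 scale, and less for a gene with a smaller SE. The largest change of a receptor in either direction was 2.02. The values below describe the genes that stood first in order of p.

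The ratio itself was far from 0 for many genes in both exposures. After vehicle 1948 probe sets (9.95%) were called higher and 2340 (12%) lower in GFP+ cells by limma, and after 2-octanone 1718 (8.78%) and 2137 (10.9%). Among the 1080 odorant receptors the same fit called 451 higher (41.8%) and 241 lower (22.3%) after vehicle, and 434 (40.2%) and 245 (22.7%) after 2-octanone. No receptor was called with opposite signs in the 2 exposures.

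**Figure D1:**
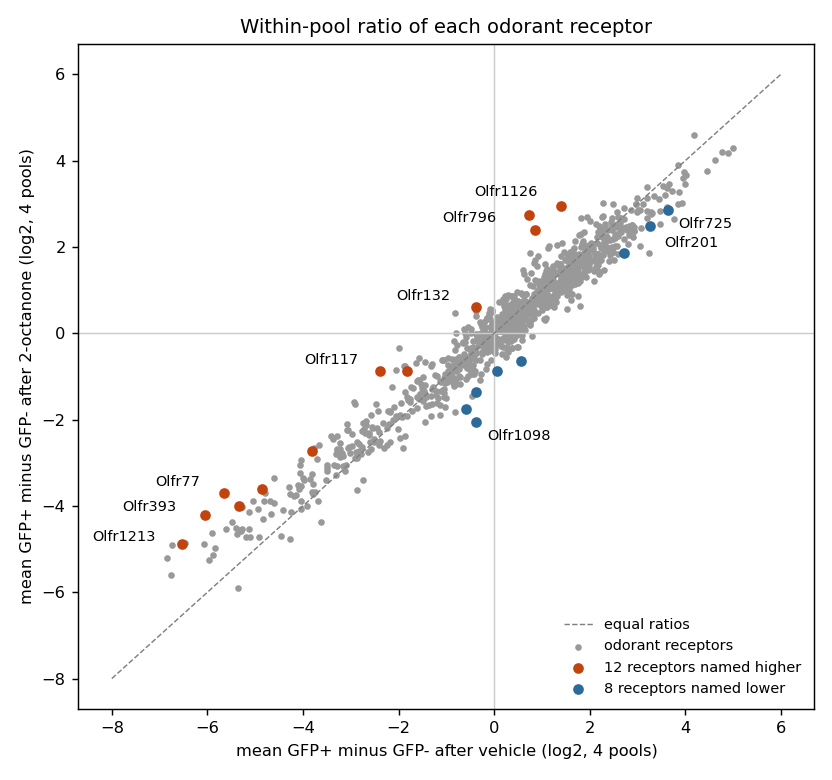
Mean GFP+/GFP- ratio (log2) of each of 1080 odorant receptors after vehicle (x axis) and after 2-octanone (y axis), 4 pools each; the dashed line marks equal ratios and the coloured points are the 12 receptors named higher and the 8 named lower. Most receptors lie near the line, and the receptors with the lowest ratios lie mostly above it.

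Among odorant receptors, 0 of 1080 passed the threshold. Their median change was -0.04, against 0.01 over all named probe sets. The change was positive in 487 receptors and negative in 593, against 10018 and 9554 of all 19572 probe sets. At an unadjusted p under 0.05, 59 (5.46%) were higher and 32 (2.96%) lower, against 2.3% and 1.74% of all probe sets. Of 819 receptors above background on at least 1 array of each fraction, 40 (4.88%) were higher and 24 (2.93%) lower. Of 208 at background on all GFP+ arrays, 18 (8.65%) were higher and 7 (3.37%) lower. Of 184 at background on all GFP- arrays, 8 (4.35%) were higher and 7 (3.8%) lower. Over all 1080 receptors, the lower ones were the more numerous without 2-octanone pool 2 (47 higher, 61 lower). So they were without 2-octanone pool 4 (42 higher, 43 lower) and without 2-octanone pools 3 and 4 (38 higher, 49 lower). Without vehicle pool 1 there were 48 higher and 46 lower. In 19 receptors (1.76%) all 4 pools given 2-octanone lay above all 4 vehicle pools, against 222 (1.13%) of all probe sets, and in 8 (0.741%) all lay below, against 199 (1.02%). Changes of more than 1 (log2) occurred upwards in 38 receptors (3.52%) and downwards in 8 (0.741%), and upwards in 95 (0.485%) and downwards in 18 (0.092%) of all probe sets. The receptors' ratios were also less precise, with a median SE of 0.36 against 0.22 over all. By receptor class, the fish-like class I gave 2 higher and 1 lower of 120, and class II, the larger class of mammals, gave 56 higher and 30 lower of 941. A further 19 receptors carried no family number, of which 1 was higher and 1 lower.

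The receptor with the smallest p was Olfr393, whose mRNA was far scarcer in GFP+ than in GFP- cells. Its ratio was -4.17, -4.06, -5.05 and -3.54 in the odorant pools, compared with -6.53, -6.27, -5.67 and -5.70 in the air pools. All 4 pools given 2-octanone lay above all 4 vehicle pools. The mean went from -6.04 to -4.20, a change of 1.84 (SE 0.32, 95% interval 1.14 to 2.53; unadjusted p = 0.00012, adjusted p = 0.9994, limma). The exact permutation test gave p = 0.0286, the smallest that 4 against 4 pools allow. It gives this value for every gene with the groups apart, as 222 probe sets were upwards and 199 downwards. Since Olfr393 was picked by p on the same ratios, it adds no support. In GFP+ cells its signal was 8.81, 8.45, 8.52 and 9.99 with 2-octanone, above background on 4 of 4 arrays, and 7.35, 7.72, 7.81 and 8.18 with vehicle, above background on 1 of 4. In GFP- cells it was 12.98, 12.51, 13.57 and 13.53 against 13.88, 13.99, 13.48 and 13.87. Over 19 alternatives the change ran from 1.62 to 2.12, and it was 1.93 with 2-octanone pools 3 and 4 left out. Even after 2-octanone, then, the signal of Olfr393 in GFP+ cells was far below that in GFP- cells.

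Olfr132 was the one receptor whose ratio turned from below 0 in every vehicle pool to above 0 in every pool given 2-octanone, as did 20 (0.102%) of all probe sets, while 22 (0.112%) turned the other way. It read 0.30, 0.69, 0.68 and 0.77 with 2-octanone, while vehicle gave -0.63, -0.56, -0.31 and -0.05. The change was 1.00 (SE 0.20, 95% interval 0.57 to 1.43; unadjusted p = 0.00033). Both fractions shared in it: the signal differed by 0.46 (SE 0.21) in GFP+ and by -0.54 (SE 0.21) in GFP- cells. The change lay between 0.89 and 1.11 over 19 alternatives. Among the 12 receptors named higher it moved least between settings.

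Olfr796 showed the largest change among receptors, and nearly all of it lay in GFP- cells. Its ratio was 2.58, 2.83, 3.12 and 2.44 with the odorant, against -0.34, 0.52, 0.61 and 2.11 with air. The groups did not overlap, but vehicle pool 4 came close to the pools given 2-octanone. The change was 2.02 (SE 0.42, 95% interval 1.10 to 2.94; unadjusted p = 0.00053), and 2.58 with both pools numbered 4 left out. In GFP- cells its signal was 9.31, 8.79, 8.97 and 8.53 in the odorant pools, compared with 11.16, 11.33, 11.43 and 9.51 in the air pools, a difference of -1.96 (SE 0.38; adjusted p = 0.413, limma). In GFP+ cells the difference was 0.06 (SE 0.38).

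Other receptors with a positive ratio also had their larger term in GFP- cells, where the signal was lower with 2-octanone. Olfr398 had ratios of 2.36, 2.56, 2.82 and 1.85 under 2-octanone, where the vehicle pools gave -0.40, 0.83, 1.02 and 1.96, with vehicle pool 4 inside the range of the other group. Its ratio differed by 1.55 (SE 0.42), with -2.14 (SE 0.55) in GFP- and -0.60 (SE 0.55) in GFP+ cells. Olfr1126 had ratios of 3.70, 3.94, 1.83 and 2.28 with 2-octanone, while vehicle gave 1.30, 1.64, 0.99 and 1.67. Here 2-octanone pools 1 and 2 were the high ones and pools 3 and 4 lay just above the vehicle pools. The change was 1.54 (SE 0.43), and 2.42 with 2-octanone pools 3 and 4 left out, where the smallest adjusted p of that limma fit, 0.16, was that of Olfr1126. The GFP- term was -1.40 (SE 0.27; adjusted p = 0.413, limma).

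Olfr123 was named after its values were seen, as the one gene of 19572 that passed the threshold in either fraction. It fell in GFP- cells by 1.58 on the log2 scale (SE 0.22; adjusted p = 0.0289, limma on the 4 group means). Its direction was the same in all 12 other fits tried, but in 8 of these the adjusted p was above 0.05, reaching 0.577 without 2-octanone pools 3 and 4 and 0.402 without 2-octanone pool 2. Its GFP- signal was 7.30, 7.12, 7.10 and 7.48 after 2-octanone, above background on 0 of 4 arrays, and 9.33, 8.75, 8.71 and 8.54 after vehicle, above background on 4 of 4. In GFP+ cells it differed by -0.47 (SE 0.22), so that the ratio gave less than the GFP- cells alone: 1.84, 2.11, 2.27 and 1.26 with the odorant, against -0.30, 1.24, 1.16 and 0.93 with air. The change of the ratio was 1.11 (SE 0.35; unadjusted p = 0.0082, adjusted p = 0.9994), and 2-octanone pool 4 lay only just above vehicle pool 2. Since an array reads RNA of all cells of a fraction, fewer neurons with a receptor and less of its RNA per neuron cannot be told apart.

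The other receptors named higher had mean ratios below 0 in both exposures. The larger term lay in GFP+ cells in Olfr77, Olfr1213, Olfr1042, Olfr459 and Olfr117, and in GFP- cells in Olfr139 (-0.63, against 0.47 in GFP+ cells) and Olfr247 (-0.50, against 0.47). Olfr77 had ratios of -4.51, -3.85, -3.20 and -3.22 in the odorant pools, compared with -7.11, -4.94, -4.88 and -5.68 in the air pools, a change of 1.96 (SE 0.47), with 1.72 (SE 0.42) in GFP+ and -0.23 (SE 0.42) in GFP- cells. Olfr1213 had -5.36, -5.29, -5.45 and -3.45 against -7.04, -5.65, -7.01 and -6.39, a change of 1.64 (SE 0.45). Olfr1042 had -4.46, -4.27, -4.26 and -3.00 against -5.46, -4.69, -5.75 and -5.44, a change of 1.34 (SE 0.33). In these receptors the groups did not overlap, and in Olfr1213 and Olfr1042 2-octanone pool 4 was far above the other 3. Olfr459 differed by 1.24 (SE 0.33) and Olfr139 by 1.10 (SE 0.24), both with the groups apart. In GFP+ cells several of these were at background: Olfr139 was above it on 0 of 4 arrays of each exposure, Olfr1042 and Olfr459 on 1 of 4 with the odorant and 0 of 4 with air, Olfr77 on 3 and 0, and Olfr1213 on 4 and 1, so that the size of their ratios is limited by the background. With 2-octanone pools 3 and 4 left out, the differences were 1.47 for Olfr77, 1.20 for Olfr1213, 0.97 for Olfr1042, 0.75 for Olfr459 and 0.88 for Olfr139. Nearer to equal signals, the ratio of Olfr117 went from -2.39 to -0.88 (difference 1.51, SE 0.38), with overlapping groups, and that of Olfr247 from -1.83 to -0.87 (0.96, SE 0.27).

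**Figure D2:**
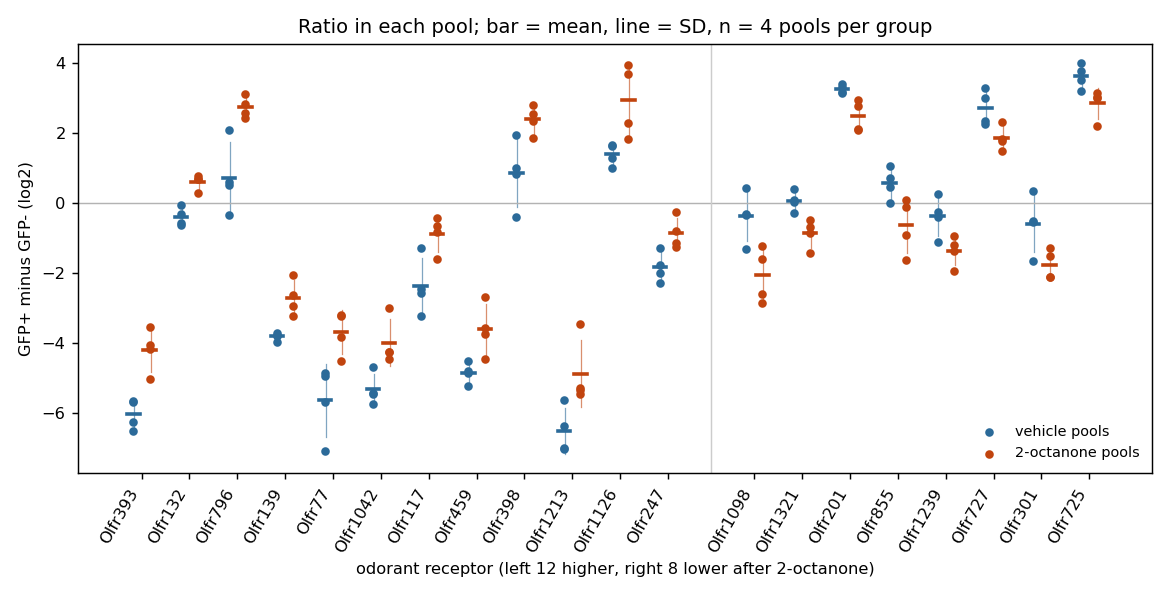
GFP+/GFP- ratio (log2) in each pool for the 12 receptors with a higher and the 8 with a lower ratio after 2-octanone that had the smallest p; points are pools, thick bars means and thin lines SDs, with 4 pools per group. Olfr393 and Olfr132 show groups fully apart, while vehicle pool 4 of Olfr796, at 2.11, lies near the pools given 2-octanone.

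The 8 receptors named lower were mostly those with ratios near 0 or above it. Olfr1098 had ratios of -2.87, -1.22, -1.59 and -2.59 under 2-octanone, where the vehicle pools gave -1.31, -0.33, -0.31 and 0.44. The groups overlapped at vehicle pool 1. The ratio differed by -1.69 (SE 0.42; unadjusted p = 0.0020), with -1.51 (SE 0.35) in GFP+ and 0.18 (SE 0.35) in GFP- cells. Olfr1321 differed by -0.93 (SE 0.24), Olfr201 by -0.77 (SE 0.23) and Olfr725 by -0.78 (SE 0.25), each with every pool given 2-octanone below every vehicle pool. Olfr855 differed by -1.20 (SE 0.37), Olfr301 by -1.17 (SE 0.37), Olfr1239 by -0.99 (SE 0.30) and Olfr727 by -0.87 (SE 0.27), with overlapping groups. Olfr301 was at background in GFP+ cells on all arrays. In Olfr201, Olfr725 and Olfr727, which were enriched in GFP+ cells in both exposures, the larger term was a higher signal in GFP- cells, by 0.47, 0.53 and 0.62.

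Over the 59 receptors higher at an unadjusted p under 0.05, the larger term lay in GFP+ cells in 37 and in GFP- cells in 22. In 54 both terms added to the change, with a higher signal in GFP+ and a lower one in GFP- cells. Their ratio averaged under -2 in 27 and over 0 in 20. Of the 32 receptors lower, 13 had the larger term in GFP+ and 19 in GFP- cells, and 24 had a mean ratio over 0 and 0 a mean ratio under -2. All 59 and all 32 kept their sign with 2-octanone pools 3 and 4 left out and with both pools numbered 4 left out. Their median changes of 1.00 and -0.74 then became 0.77 and -0.68 in the first case and 0.78 and -0.67 in the second. Above background on at least 1 array of each fraction were 40 of the 59 and 24 of the 32. The 59 and the 32 were picked on the change itself, so that the counts describe them and support no direction.

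**Figure D3:**
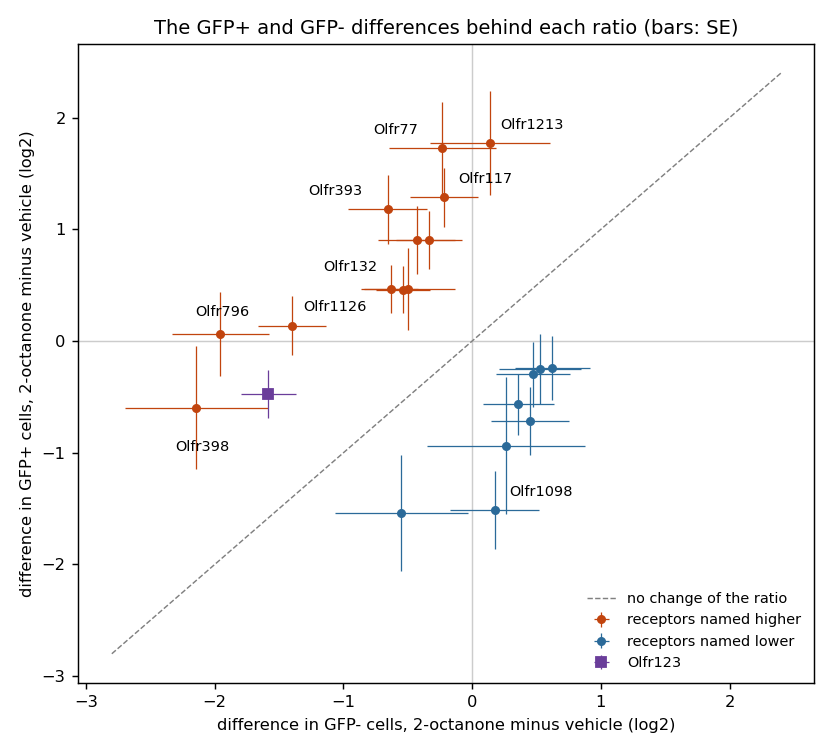
Difference between 2-octanone and vehicle (log2) in GFP- cells (x axis) and in GFP+ cells (y axis) for the 20 receptors named and Olfr123; bars are SEs from the fit of 16 arrays, and points above the dashed line have a higher ratio after 2-octanone. Olfr796, Olfr398, Olfr1126 and Olfr123 lie far to the left near a GFP+ difference of 0 or below it, and Olfr77, Olfr1213, Olfr117 and Olfr393 lie high near a GFP- difference of 0 or somewhat below it.

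The change varied with the level of the ratio. Of 41 receptors with a mean ratio under -4 over all pools, 37 had a positive change, with a median of 0.87, and of 123 other genes in that range 121 had a positive change, with a median of 0.74. From -4 to -2 the medians were 0.36 in 105 receptors and 0.28 in 436 other genes. In 143 receptors between 2 and 4 the median was -0.24, and in 6 over 4 it was -0.65. With both pools numbered 4 left out, these 2 medians were 0.07 and -0.06. With 2-octanone pools 3 and 4 left out, they were -0.11 and -0.40. In the lowest range the receptors' median ratio was -5.36, -4.80, -4.42 and -3.27 with 2-octanone, while vehicle gave -5.59, -4.79, -5.45 and -5.17, so that 2-octanone pools 3 and 4 were high and pools 1 and 2 lay among the vehicle pools. With pools 3 and 4 left out, the median change there was 0.21 in receptors and 0.15 in other genes, and from -4 to -2 it was 0.00 in receptors and 0.21 in other genes. With both pools numbered 4 left out, the medians in the lowest range were 0.56 in receptors and 0.31 in other genes. From -4 to -2 they were 0.12 and 0.06. The 2 terms in the lowest range, with all pools, were 0.69 in GFP+ and -0.19 in GFP- cells for receptors.

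Neutrophil genes stood apart in the same pools. All 10 markers were above background, and their mean ratio was -7.24, -8.24, -4.93 and -3.54 with the odorant, against -7.75, -7.48, -7.79 and -7.40 with air. Their mean signal in GFP+ cells was 7.14 to 12.45 after 2-octanone and 6.71 to 8.19 after vehicle, and in GFP- cells 14.39 to 15.99 and 14.50 to 15.59. The change of the ratio was positive in 10 of 10 with a median of 1.67, none of them called, and the median was -0.14 with 2-octanone pools 3 and 4 left out. S100a8, a subunit of calprotectin, had ratios of -7.64, -8.98, -5.05 and -3.79 against -8.33, -8.46, -8.47 and -7.72. Lcn2, which binds iron carriers of bacteria, differed by 2.46 (SE 1.19), the largest value of any gene, and Ltf, the milk and granule protein lactoferrin, by 1.48 (SE 0.70). For S100a8 and Lcn2 the difference was -0.06 and -0.14 without those pools. The part of such cells in the receptors' low ratios was not tested.

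Some neighbours of a few leading receptors had changes of the same sign. Receptor genes lie in clusters in which close relatives stand side by side, and relatives can share probe sequence, which was not checked here. Around Olfr77, Olfr1042, Olfr247 and Olfr459 no neighbour had an unadjusted p under 0.05 (0 of 10, 10, 10 and 7), and the neighbours' median changes were -0.03, -0.18, 0.08 and -0.28. Around Olfr393, 7 of 21 receptors from Olfr381 to Olfr406 in RefSeq gene order were higher at an unadjusted p under 0.05 and 1 was lower, with a median change of 0.33. Among all 1080 receptors the shares were 5.46% higher and 2.96% lower. The 4 adjacent genes Olfr390, Olfr391, Olfr392 and Olfr393, all of family MOR135, differed by 1.84 (SE 0.67), 1.04 (SE 0.42), 0.87 (SE 0.36) and 1.84 (SE 0.32). Only Olfr393 of these had groups apart, and without 2-octanone pools 3 and 4 the first 3 gave 0.78, 0.38 and 0.40. Olfr395, of the same family and at background on all arrays, differed by -1.0 (SE 0.37). Of 17 measured MOR135 receptors 11 had a positive change. Olfr398 and Olfr139, the next pair of neighbours, differed by 1.55 and 1.10.

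Another run, from Olfr112 to Olfr136, held Olfr132 and Olfr123. Of its 28 receptors, 7 were higher at an unadjusted p under 0.05 and 0 lower, with a median change of 0.27. These were Olfr114, Olfr117, Olfr123, Olfr127, Olfr130, Olfr132 and Olfr133. Olfr130 had ratios of 0.40, 0.83, -0.18 and 0.82 in the odorant pools, compared with -1.42, -1.22, -1.01 and 0.39 in the air pools, with vehicle pool 4 alone among the other group. Olfr133 had 0.53, 0.55, 0.44 and 0.62 against -0.41, -0.24, 0.26 and 0.16, with the groups apart and a difference of 0.59 (SE 0.19). Of these, Olfr117, Olfr123, Olfr130, Olfr132 and Olfr133 belong to MOR256, in which 8 of 48 receptors were higher, 0 were lower and the median change was 0.05. Beside the counts of this run and family, 5.46% of all 1080 receptors were higher and 2.96% lower at the same unadjusted p.

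The last run, from Olfr722 to Olfr739, held 17 receptors, 5 of them lower and 0 higher at an unadjusted p under 0.05. Among all 1080 receptors 2.96% were lower and 5.46% higher. Olfr725, Olfr726, Olfr727 and Olfr731, of family MOR246, differed by -0.78, -0.85, -0.87 and -0.59, and of the 6 measured members 1 had a positive change. All of the 4 were richer in GFP+ cells in both exposures, with mean ratios of 3.63, 3.84, 2.72 and 1.76 after vehicle and 2.85, 2.99, 1.86 and 1.17 after 2-octanone. Vehicle pool 4 was the highest in Olfr725, Olfr726 and Olfr727. With both pools numbered 4 left out, the differences of Olfr725, Olfr726, Olfr727 and Olfr731 were -0.71, -0.35, -0.67 and -0.53. With 2-octanone pools 3 and 4 left out, they were -0.95, -0.60, -1.09 and -0.23. These runs were chosen after the values were seen and carry no test.

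**Figure D4:**
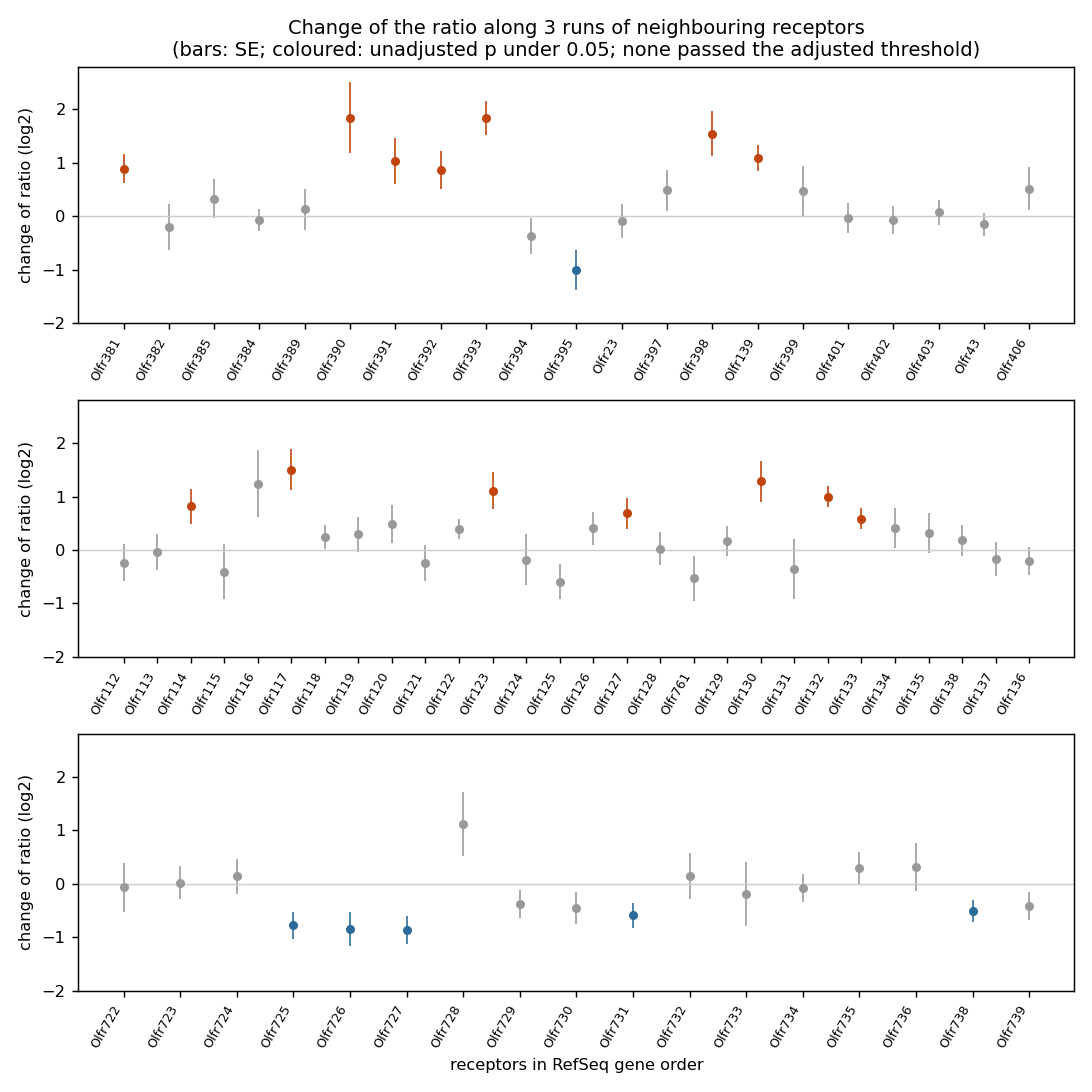
Change of the GFP+/GFP- ratio (log2, 2-octanone minus vehicle, bars SE) of receptors in RefSeq gene order along the runs from Olfr381 to Olfr406, Olfr112 to Olfr136 and Olfr722 to Olfr739; coloured points had an unadjusted p under 0.05. The first run holds 7 higher and 1 lower, the next 7 higher and the last 5 lower.

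Receptors for which ketones are known as ligands were taken from a short list of 4, of which 3 were measured. Olfr160, also known as M72, had ratios of 1.85, 2.93, 2.93 and 3.07 under 2-octanone, where the vehicle pools gave 2.10, 1.61, 2.51 and 1.56. 2-octanone pools 2, 3 and 4 were above all vehicle pools and pool 1 was among them. The difference was 0.75 (SE 0.31; unadjusted p = 0.033), and 0.44 with 2-octanone pools 3 and 4 left out. Olfr1440 differed by 0.27 (SE 0.39) and gave -0.18 without those pools. The 3 differences ran from 0.07 to 0.75, and none was called.

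Activity-dependent genes of sensory neurons, other than receptors, had small differences. Of 12 measured genes of this list 11 were positive and 1 negative, with a median of 0.09, and 0 were called. The median was 0.23 with 2-octanone pools 3 and 4 left out, and 0.21 with both pools numbered 4 left out. Over all 19572 probe sets 10018 were positive. Kcnn3, a calcium-activated potassium channel whose signal was above background on 0 of 4 arrays in each of the 4 groups, differed by 0.67 (SE 0.21): its ratio was 0.32, 0.63, 0.54 and 0.50 with 2-octanone, while vehicle gave -0.58, -0.29, -0.15 and 0.32, where pool 4 was level with the lowest of the other group. Calb2, the calcium-binding protein calretinin, differed by 0.45 (SE 0.21). Odorant signalling genes gave a median of -0.02 with 5 of 18 positive, and mature neuron genes -0.05 with 4 of 16 positive. Single genes ran from -0.16 to 0.12 in the former list and from -0.32 to 0.28 in the latter.

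Immediate early genes, transcription factors switched on within minutes of stimulation, included several with far lower signals in GFP+ than in GFP- cells, and most had a higher ratio after 2-octanone without passing the test. Of 18 members 14 were positive, with a median of 0.25, and 3 were higher at an unadjusted p under 0.05, none of them called. Of all 19572 probe sets 10018 were positive, and 451 (2.3%) were higher at that p. The list's median was 0.43 with 2-octanone pools 3 and 4 left out, and 0.30 with both pools numbered 4 left out. Nr4a2, a nuclear receptor of this class, led the genes other than receptors with a higher ratio among those named. Its ratio was -0.12, -0.23, -0.04 and -0.56 with the odorant, against -1.93, -1.71, -0.70 and -2.44 with air, and the groups did not overlap. The change was 1.46 (SE 0.32; unadjusted p = 0.00082), with -0.96 (SE 0.38) in GFP- and 0.50 (SE 0.38) in GFP+ cells, where its signals of 5.0 to 6.86 were below background on all arrays, as they were on 7 of 8 arrays of GFP- cells. Junb, an AP-1 subunit, had -2.09, -3.27, -2.02 and -3.16 against -3.40, -3.44, -3.52 and -4.45, a difference of 1.07 (SE 0.34). Egr1 differed by 0.95 (SE 0.33) and Fos by 0.29 (SE 0.28).

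Precursor and immature neuron genes had mostly positive differences. Of 8 measured genes of globose basal and precursor cells 7 were positive (median 0.37), of 15 of immature neurons 13 (median 0.28) and of 13 of dividing cells 12 (median 0.36), and 0 were called. Among all 19572 probe sets 10018 were positive. Genes other than receptors were positive in 346 of 436 (79.4%, median 0.28) at mean ratios from -4 to -2. From -2 to 0 they were positive in 2924 of 5225 (56%, median 0.03). The median ratios of these lists after vehicle were -1.50, -0.64 and -2.60. Kit, the stem cell factor receptor, had ratios of -3.03, -2.97, -2.38 and -2.76 in the odorant pools, compared with -3.25, -3.51, -3.55 and -4.17 in the air pools. The groups did not overlap, and vehicle pool 4 was the lowest, as it was in the means of the precursor, immature and dividing cell lists. Neurog1, a proneural factor, differed by 0.75 (SE 0.17) at signals below background on all arrays, Cxcr4, a chemokine receptor of precursors, by 0.78 (SE 0.30), and Mki67, a protein of dividing cells, by 1.15 (SE 0.46). With both pools numbered 4 left out, the medians of the precursor and dividing cell lists were 0.05 and 0.08, and that of the immature neuron list 0.19. With 2-octanone pools 3 and 4 left out, these medians were 0.385, 0.08 and 0.25, and Neurog1, Cxcr4 and Mki67 gave 0.76, 0.56 and 0.51.

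Genes of supporting cells and glands had mostly negative differences. Of 12 sustentacular genes, of the cells that support the neurons, 11 were negative (median -0.38), and of 10 genes of Bowman's gland, which makes the mucus, 8 (median -0.51). Among all 19572 probe sets 9554 were negative. The mean ratios of the sustentacular list were -0.11, -1.0, -0.92 and -0.96 under 2-octanone, where the vehicle pools gave 0.01, -0.33, -0.73 and -0.65, with 2-octanone pool 1 among the vehicle pools. With 2-octanone pools 3 and 4 left out the median of the sustentacular list was -0.07, and that of the Bowman's gland list was -0.73. Of 13 genes of xenobiotic metabolism 10 were negative (median -0.37, and 0.09 without those pools), among them the glutathione transferase Gsta4 at -0.53 (SE 0.23). Csf1r, the receptor of macrophage colony-stimulating factor, differed by -0.68 (SE 0.33) and the complement subunit C1qa by -0.75 (SE 0.40), with 7 of 11 macrophage genes negative (median -0.17). Without 2-octanone pools 3 and 4 the macrophage median was 0.04 and C1qa gave -0.15. Trpm5, a channel of microvillar cells, differed by 0.67 (SE 0.25), with 8 of 11 genes of these cells positive (median 0.14, and 0.00 without those pools). No member of these lists was called.

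**Figure D5:**
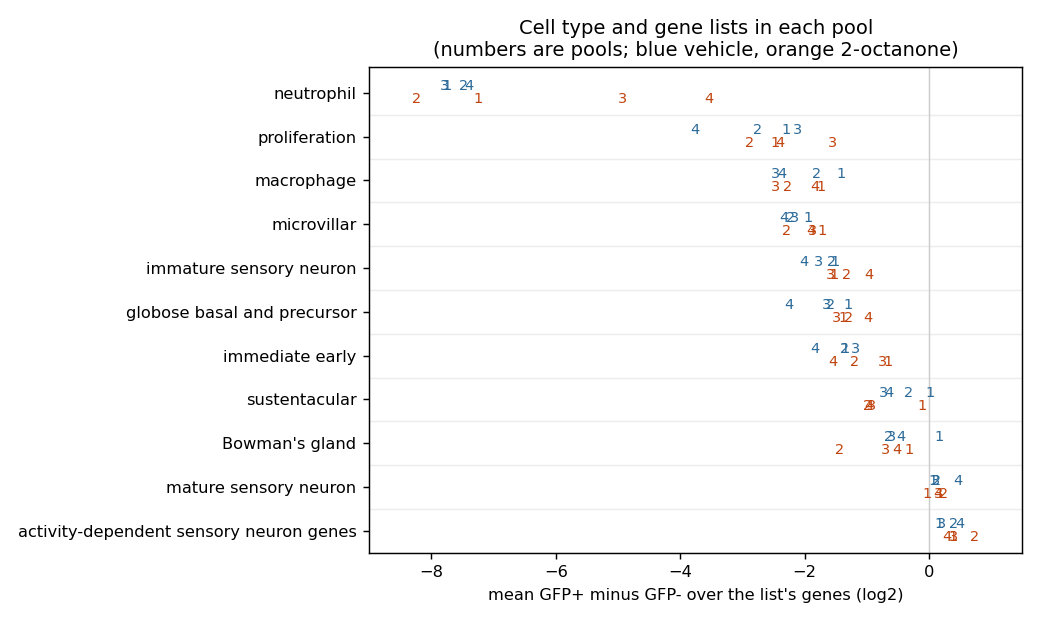
Mean GFP+/GFP- ratio (log2) over the genes of 11 lists in each pool; the digits are pool numbers, blue for vehicle and orange for 2-octanone. The neutrophil list stands at -4.93 and -3.54 in 2-octanone pools 3 and 4 and between -8.24 and -7.24 in the other 6 pools.

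Other genes with the smallest p were a mixed group. Higher after 2-octanone were Pirb, an inhibitory receptor of leukocytes, which differed by 0.90 (SE 0.20), Cd177, a neutrophil surface protein, by 1.45 (SE 0.36), and Ifitm3, an interferon-induced membrane protein, by 1.20 (SE 0.30), all at ratios under -4. With 2-octanone pools 3 and 4 left out, they gave 0.72, 0.86 and 0.77. Far2, a fatty acyl-CoA reductase, differed by 0.93 (SE 0.23), B4galnt1, an enzyme of ganglioside synthesis, by 1.06 (SE 0.27), Fam111a by 1.23 (SE 0.34) and the lectin gene Clec2i by 1.13 (SE 0.31). Without those pools Far2, B4galnt1, Fam111a and Clec2i gave 0.80, 1.09, 1.15 and 1.00. Of these, Pirb, Far2, B4galnt1, Fam111a and Clec2i were above background in GFP+ cells on 0 of 4 arrays of each exposure, and Far2 in GFP- cells on 0 of 4 with the odorant and 1 of 4 with air. Lower were Phxr4, by -1.06 (SE 0.21), and P2ry13, a purine receptor, by -0.98 (SE 0.20), each with groups apart. P2ry13 was at background in GFP+ cells on all arrays. Phxr4 was above background in GFP+ cells on 0 of 4 arrays with the odorant and 2 of 4 with air, and in GFP- cells on 2 of 4 and 1 of 4. At these low signals its ratio was -0.28, -0.44, -0.61 and -0.94 with 2-octanone, while vehicle gave 0.55, 0.06, 0.65 and 0.73, a turn of sign in every pool. Med17, a subunit of the Mediator complex, turned likewise, from a mean of 0.41 to -0.27. Patj, a scaffold of tight junctions, Zfp94, 6330415B21Rik, Abhd1 and Gucy1b2, a subunit of guanylyl cyclase, had values of -0.69, -0.70, -1.04, -0.63 and -0.81. Gucy1b2 was above background on 1 of 4 arrays of GFP+ cells with air and on 0 of 4 in each other group. 6330415B21Rik and Abhd1 were above it on only some arrays of each group. The adjusted p of every gene in this mixed group was 0.9994 in limma.

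The genes whose ratio over the 8 pools was most like that of Olfr393 were Olfr47 (r = 0.98), the casein kinase gene Csnk1d (r = 0.98), the phosphatase subunit gene Ppp2r5b (r = 0.97), the ion channel gene Asic1 (r = 0.96) and Emc10 (r = 0.95). These values rest on 8 pools of the same arrays and are a description. Olfr47 itself differed by 0.51.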

How the data were processed

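The deposited table held the authors' processed log2 signals of 16 arrays (Clariom S), with values from 2.13 to 18.99. Affymetrix Expression Console is named in the submitters' processing notes, and the log base and the normalisation are not given in the sources used here. Values were read as log2 by their range. The table's 28846 probe sets comprised 6640 controls, 2634 without a gene name and 19572 with 1 gene each, with all identifiers found in a RefSeq table (GRCm38.p6). They stood for 19505 symbols, and 55 symbols had several probe sets, of which the one with the highest mean is described.

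For each pool GFP- was subtracted from GFP+, and odor was compared with vehicle by limma 3.58.1 in R 4.3.3 (lmFit, eBayes) on the 8 differences, two-sided, with Benjamini-Hochberg adjustment over 19572 and a threshold of 0.05. The mean of each exposure was tested against 0 in the same fit. The differences within a fraction came from the means of 4 groups over 16 arrays. Background was the 95th percentile of 23 background probe sets of the same array. No depth applies to arrays, and the number of pools limits the precision. The exact permutation test over 70 arrangements was the other test for single genes.

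Named genes were S100a5, Omp, the 12 receptors higher and 8 lower and 8 other genes in each direction with the smallest p, skipping genes at background on all arrays, and up to 2 members per list with the smallest p. Others, namely Olfr123, Fos, Egr1, Neurog1, Lcn2 and the neighbours of leading receptors, were named after their values were seen. Odorant receptors were taken by symbol without pseudogenes, and class I as MOR family numbers up to 42 in RefSeq synonyms, which takes in 3 receptors of family 0. The members and the 25 lists were chosen with earlier results of these data known. Of 281 list genes 27 were not named on the array. The fit was tested on simulated data. The alternatives were other pairings, normalisations, filters, variance models, a threshold of 0.1, array weights and pools left out. Leaving out 2-octanone pools 3 and 4 was chosen after seeing the data. Whether the pools of 3 mice were processed on separate days is not given, so p-values measure the spread between these pools.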

Additional observations from a re-analysis of the deposited data

Results flagged for a closer look

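In 38 genes named by the rule, the 4 values of each exposure were searched for a pool far from the other 3 by Dixon's criterion at 95%, and 7 of 76 groups met it. All of these genes but S100a5 and Omp were picked by p on the same ratios, and all share the same pools. The criterion's nominal rate therefore does not apply, and the count shows no excess or lack of outlying pools. Vehicle pool 4 lay apart in S100a5, at a ratio of 0.11 against 0.90 to 1.02, and in Omp, at 0.60 against 0.01 to 0.10. 2-octanone pool 4 lay apart in Olfr1042 at -3.00 and in Olfr1213 at -3.45. 2-octanone pool 2 lay apart in Olfr725 at 2.21. Vehicle pool 3 lay apart in P2ry13 at -0.56 and in Patj at 0.37.

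The ratio had opposite signs in all pools of the 2 exposures in Olfr132, Phxr4 and Med17, with changes of 1.00, -1.06 and -0.69. The difference between the exposures was tested in each and did not pass (adjusted p = 0.9994, limma). Phxr4 was above background on at most 2 of 4 arrays of any group.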

How the results depend on the processing

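The count of 0 called genes and of 0 called receptors for the change of the ratio stood under each of 20 alternatives, with an unadjusted p under 0.05 for 296 to 970 probe sets. With the replicate number as a block (replicate block) 0 were called, 922 probe sets had an unadjusted p under 0.05 and 56 receptors were lower. Residuals of same-numbered pools correlated at 0.21, 0.03, 0.10 and 0.06, and those of differently numbered pools at -0.21 to 0.20. The numbers were not taken as pairs in the main fit. These correlations cannot show whether same-numbered pools share a batch, since what both fractions share cancels in the ratio.

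Counts of receptors higher at an unadjusted p under 0.05 became 31 without the pairing of the fractions and 38 without 2-octanone pools 3 and 4. Counts of receptors lower became 8 without the pairing, 15 with the pool as a random block, 20 with limma's trend and robust options and 49 without 2-octanone pools 3 and 4. Over all probe sets, 236 were higher without the pairing, and the filter on low signals left 194 higher and 102 lower among fewer genes. Receptors with all pools given 2-octanone above the vehicle pools numbered 59, and those below 28, without both pools numbered 4, and 45 and 59 without 2-octanone pools 3 and 4. With median centring 326 probe sets were higher and 472 lower at an unadjusted p under 0.05, and with quantile normalisation 383 and 404. Counts of groups apart grow as pools are left out, since fewer values must be ordered.

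For the ratio within an exposure, calls higher after vehicle were 3205 with quantile normalisation, 10762 with median centring (1851 lower), 3148 at a threshold of 0.1 and 1086 without both pools numbered 4, and calls lower were 1234 with the filter. After 2-octanone they were 1036 higher without the pairing, 9090 with median centring (1762 lower) and 2813 at 0.1, 582 higher and 1384 lower without 2-octanone pools 3 and 4, and 1154 lower with the filter.

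With 1 pool left out, receptors higher ranged from 42 to 87, receptors lower from 25 to 61, receptors with groups apart from 23 to 51 upwards and from 11 to 34 downwards. Calls after vehicle ranged from 1025 to 1974 higher, the lowest without vehicle pool 4, and after 2-octanone from 891 to 1883 higher, the lowest without 2-octanone pool 2.

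Some small differences of named genes changed sign. That of Omp was 0.030 with quantile normalisation, 0.051 without both pools numbered 4 and 0.071 without vehicle pool 4, and ranged from -0.128 to 0.071 with 1 pool left out. That of S100a5 ranged from -0.078 without vehicle pool 4 to 0.313 without 2-octanone pool 4. Olfr1440 gave -0.015 without both pools numbered 4, -0.134 without 2-octanone pool 4, 0.508 without 2-octanone pool 1 and -0.182 without 2-octanone pools 3 and 4, and the latter setting gave -0.064 for S100a8 and -0.143 for Lcn2. The cause was not tested. The difference of Olfr123 in GFP- cells ran from -1.42 to -1.76 over 12 alternatives chosen after seeing the data, with an adjusted p from 0.0117 to 0.577, and 8 of them were above 0.05.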

Other observations

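Of 321 probe sets of vomeronasal receptors, which detect pheromones in another organ, 7 were higher (2.18%) and 13 lower (4.05%) at an unadjusted p under 0.05. Of all probe sets 2.3% were higher and 1.74% lower. The median change of vomeronasal receptors was -0.04, and 0 were called by limma. Of 319 genes 5 were above background in some group. At an unadjusted p under 0.05, 0 of 15 trace amine receptors were higher and 0 lower, with a median of -0.09 and 5 positive, and 13 of the 15 were above background in some group. Olfr832, at background on all arrays, had ratios of -1.0, -1.65, -0.37 and -0.05 after 2-octanone and -1.94, -2.08, -1.79 and -1.73 after vehicle, a difference of 1.12 (SE 0.31), and 0.56 with 2-octanone pools 3 and 4 left out.

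Among 2634 probe sets that name no gene, 0 were called by limma and 104 (3.95%) had an unadjusted p under 0.05.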
